A study of Mus musculus with 16 samples.

Results

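The lncRNA table of this mouse skeletal muscle study holds 134 transcripts whose identifiers begin with MSTRG, among 58245 lncRNA transcripts in all. The prefix is the one that the assembler StringTie gives to a transcript built from the reads themselves. The 100 lncRNAs with the highest mean count over the 16 mice were left out by the rule, but no MSTRG transcript was among them, so the 134 are all the MSTRG lncRNAs of the table. The most abundant, MSTRG.46264.45, ranked 116th with a mean count of 1498.5, and the last lncRNA inside the 100 had 1727.875. The other transcripts carry identifiers of NONCODE (50877), a collection of non-coding RNAs, or of Ensembl (7234).

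The study compared muscle of 4 groups of male C57BL/6 mice (C57BL/6J background in the paper), with 4 mice in each. The control group received a normal diet, and the HFD group received a high-fat diet with 60% fat for 8 weeks from an age of 6 weeks, which was used as a model of insulin resistance. The HFD + RSV group was fed the same diet and then treated with resveratrol, a plant polyphenol, for 6 weeks, and the HFD + metformin group was treated for 6 weeks with metformin, a first-line drug for type 2 diabetes. Each mouse gave 1 library, so n = 4 mice per group throughout.

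Long non-coding RNAs are long transcripts that are not translated, and they can act on neighbouring genes, on chromatin or as binding partners of other RNAs. Many are expressed in 1 tissue or few, so an assembly from muscle reads can hold transcripts that a catalogue does not list. An assembled transcript is a model: exons may be joined wrongly between copies of a duplicated gene, and reads of an unspliced pre-mRNA may be taken for a transcript of its intron. Strand, exon positions and sequence of the assembled transcripts were not used here, and a position is given as the whole span from first to last base on GRCm38.

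The libraries held 20281801 to 34021101 counts over both tables. MSTRG lncRNAs took 0.408% to 0.605% of the lncRNA counts, and 118 to 130 of the 134 had a count in a given mouse. Across these 134, Spearman's correlation of log2 CPM, the count scaled to library size, between mice of the same group ranged from 0.789 to 0.911 (24 pairs), and between mice of different groups from 0.726 to 0.948 (96 pairs). All 8 markers of skeletal muscle fibres were found in every mouse, whereas the retina markers, checked because the extraction text of the labels speaks of retinas, summed to at most 1.45 CPM. Adipocyte markers summed to 3261.1 CPM in control mouse 3 and 3108.5 CPM in HFD + metformin mouse 3, against 185 to 1087.1 CPM in the other 14 mice.

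The MSTRG lncRNAs were of ordinary length but lay over long spans. Their median length was 1259.5 bases, with a range from 205 (MSTRG.41614.3) to 15904 bases (MSTRG.17632.1), and the medians of the NONCODE and Ensembl lncRNAs were 1347.0 and 1253.0 bases. The median span was 16441.5 bases, against 1860.0 for NONCODE and 2926.5 for Ensembl lncRNAs. A span over 100 kb was seen for 42 of the 134 (31.3%), for 0.692% of NONCODE and for 2.29% of Ensembl lncRNAs. None of the 134 was a single unbroken block, whereas 68.7% of NONCODE and 43.2% of Ensembl lncRNAs were.

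**Figure D1:**
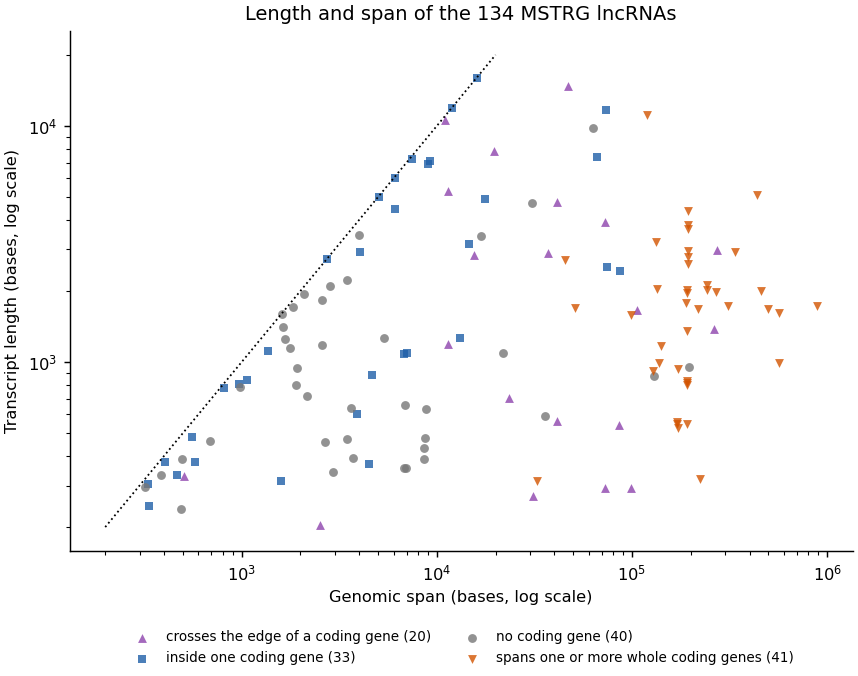
Transcript length in bases (vertical axis, log scale) against genomic span in bases (horizontal axis, log scale) for the 134 MSTRG lncRNAs, with the symbol giving the position relative to coding genes. Transcripts near the dotted line of equal length and span fill their span, and the 42 transcripts with a span over 100 kb form a group at the right, mostly over whole coding genes.

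By level, the MSTRG lncRNAs were above most of the table. FPKM, a level per transcript length and library size, had a median of 1.75 over the 134 (mean of 16 mice for each), against 0.0724 for NONCODE and 0.0744 for Ensembl lncRNAs. The median of the mean count was 65.7, against 2.25 and 2.06. A count in every mouse was found for 111 of the 134, and 10 were at 0 in at least 8 mice. The assembler builds a transcript only where reads cover it, which the catalogues do not require, so the levels of the 3 kinds were not tested against each other.

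MSTRG.41296.1 had the highest level, with a mean of 15.7 FPKM. This transcript of 394 bases lies at chr8:55349413-55353118 with no coding gene in its span, and its nearest coding gene, Gpm6a, which encodes a neuronal membrane glycoprotein, is 288542 bases away. MSTRG.5186.1 followed with a mean of 12.4 FPKM and MSTRG.12945.2 with 8.51 FPKM. The span of MSTRG.12945.2 at chr14:46084046-46084735 lies wholly in the transcribed pseudogene Gm1821, so reads of the pseudogene and of the transcript cannot be told apart. Others of the 10 highest were MSTRG.17217.6 at 7.38 FPKM, MSTRG.17196.4 in Cyyr1 at 6.17 FPKM, MSTRG.17022.1 in Cmss1 and Filip1l at 5.91 FPKM and MSTRG.34809.1 at 5.89 FPKM.

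Relative to the coding transcripts of the mRNA table, 41 MSTRG lncRNAs spanned at least 1 whole coding gene, 40 overlapped none, 33 lay inside a coding gene and 20 crossed the edge of one. The median level was similar in these classes, at 2.39, 1.69, 1.78 and 1.62 FPKM. Of the 33 inside a gene, 24 overlapped no coding exon of GENCODE M21. At the edges, 16 of 20 reached over the 5′ end of a gene and 3 over a 3′ end alone. The 40 without a coding gene lay a median of 80044 bases from the nearest, with 6 within 5000 bases and 18 beyond 100 kb. No GENCODE gene of any type was in the span of 31, and no other lncRNA of the table in the span of 58.

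Length and span separated transcripts of unlike build. In 14 MSTRG lncRNAs, at least 90% of the span was in the transcript, and 9 of these 14 lay inside a coding gene without a coding exon. The longest, MSTRG.17632.1, fills 15904 of 16021 bases in an intron of Park2, which encodes the mitophagy ligase parkin, and held 1.85 FPKM. MSTRG.46264.45 fills 11923 of 11971 bases in an intron of Dmd, which encodes dystrophin, the sarcolemmal protein lost in Duchenne muscular dystrophy, and held 4.67 FPKM. At the other end, 54 of the 134 transcripts made up under 5% of their span, and 41 of these had a span over 100 kb.

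Many MSTRG lncRNAs lay in groups. With a gap of at most 500 kb, 67 stood alone and 38 fell into 4 groups of 5 or more. These 4 groups held 32 of the 42 spans over 100 kb. The largest, with 17 transcripts, lies at chr10:22211110-22462462 over Raet1e, Raet1d and H60b, which encode ligands of the natural killer cell receptor NKG2D. A group of 9 at chr8:19699166-20586968 lies around 4930467E23Rik, a group of 7 at chr4:42011760-42722678 lies over copies of the chemokine genes Ccl21b and Ccl27b and of the interleukin receptor gene Il11ra2, and a group of 5 at chr2:175654779-177228433 lies among zinc finger genes. These are regions of near-identical gene copies, so counts of single transcripts there are uncertain, since the assignment of reads between copies was not stated.

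Promoter sequences are shown for 3 coding genes whose 5′ end is crossed by an MSTRG lncRNA and which were themselves called between the HFD and control groups, as described further on. They were taken from RefSeq for GRCm38.p6, each with 250 bases before and 50 bases after the start, on the strand of the gene. Capitals mark matches on either strand to 5 motifs. TATAAA occurs in 13.6% of the 32851 RefSeq promoters and its variant TATTTAAA in 1.81%. CCAAT occurs in 37.4%, GGGCGG in 35.7% and TGACG in 20.8%. A match is a description of the letters and not a binding site. Pck1 is at chr2:173152823-173153122 on the plus strand and holds TATTTAAA at -31, GGGCGG at -16 and TGACG, on the reverse strand, at -90, counted from 0 at the start. Tmem233 is at chr5:116083218-116083517 on the minus strand and holds none of the motifs, and Spns2 is at chr11:72474978-72475277 on the minus strand with CCAAT at -175.
Pck1: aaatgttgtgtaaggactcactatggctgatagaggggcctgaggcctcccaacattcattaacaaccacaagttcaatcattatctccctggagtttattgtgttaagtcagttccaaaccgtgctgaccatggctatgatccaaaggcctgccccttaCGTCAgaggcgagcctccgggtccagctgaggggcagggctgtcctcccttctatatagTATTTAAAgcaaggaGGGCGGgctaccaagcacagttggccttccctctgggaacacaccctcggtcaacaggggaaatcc
Tmem233: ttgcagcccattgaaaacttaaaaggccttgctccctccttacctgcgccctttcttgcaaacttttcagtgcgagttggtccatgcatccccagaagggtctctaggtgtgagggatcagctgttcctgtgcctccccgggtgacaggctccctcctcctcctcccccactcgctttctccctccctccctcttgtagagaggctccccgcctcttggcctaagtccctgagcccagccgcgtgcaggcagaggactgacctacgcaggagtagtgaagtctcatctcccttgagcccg
Spns2: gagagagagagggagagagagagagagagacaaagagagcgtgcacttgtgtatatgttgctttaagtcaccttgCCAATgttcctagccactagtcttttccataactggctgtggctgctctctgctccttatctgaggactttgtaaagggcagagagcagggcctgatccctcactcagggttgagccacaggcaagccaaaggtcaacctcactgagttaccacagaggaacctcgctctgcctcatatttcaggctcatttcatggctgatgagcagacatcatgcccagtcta
The windows of Pck1 and Tmem233 lie in the spans of MSTRG.25909.1 and MSTRG.33607.1. That of Spns2 lies 3337 bases from MSTRG.6385.1, which crosses the 5′ end of a longer Spns2 transcript.

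To ask whether the diet and the drugs moved these transcripts, the counts of all lncRNAs were fitted together with the quasi-likelihood test of edgeR. Of the 134, 115 passed the filter on low counts and were tested. The 19 others had mean counts from 1.19 to 30.1, and 8 of the 19 had most of their counts in 1 mouse. A call needed an unadjusted P below 0.05 with an absolute log2 fold change (log2FC) above 1, and an adjusted P refers to the Benjamini-Hochberg procedure over all 17599 lncRNAs tested. In bulk tissue, fewer cells of a type and less RNA per cell cannot be told apart.

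The HFD group differed from the control group in 22 of the 115 MSTRG lncRNAs, of which 16 were higher and 6 lower. That is 19.1%, and 5.94% of all lncRNAs tested were called, 3.01% as higher and 2.93% as lower. The unadjusted P was below 0.05 for 47 (17.6% of all lncRNAs). At an adjusted P below 0.05, 9 were called, 8 higher and 1 lower (7.83%, against 1.61% of all). The median log2FC was 0.35 over the 115 and 0.00 over all lncRNAs, and 68.7% of the 115 but 49.6% of all had a log2FC above 0. The 115 are not independent, since transcripts of the same locus or region may share reads. With counts summed per assembled locus, 12 were called higher and 6 lower, and the share of all lncRNAs called in that fit is not given here. For 33 of the 115 (28.7%), all 4 HFD mice were on one side of all 4 control mice, which held for 12.5% of all lncRNAs. The MSTRG lncRNAs tested had higher counts than the rest, with a median of 77.9 against 27.2 for NONCODE and 26.2 for Ensembl lncRNAs.

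**Figure D2:**
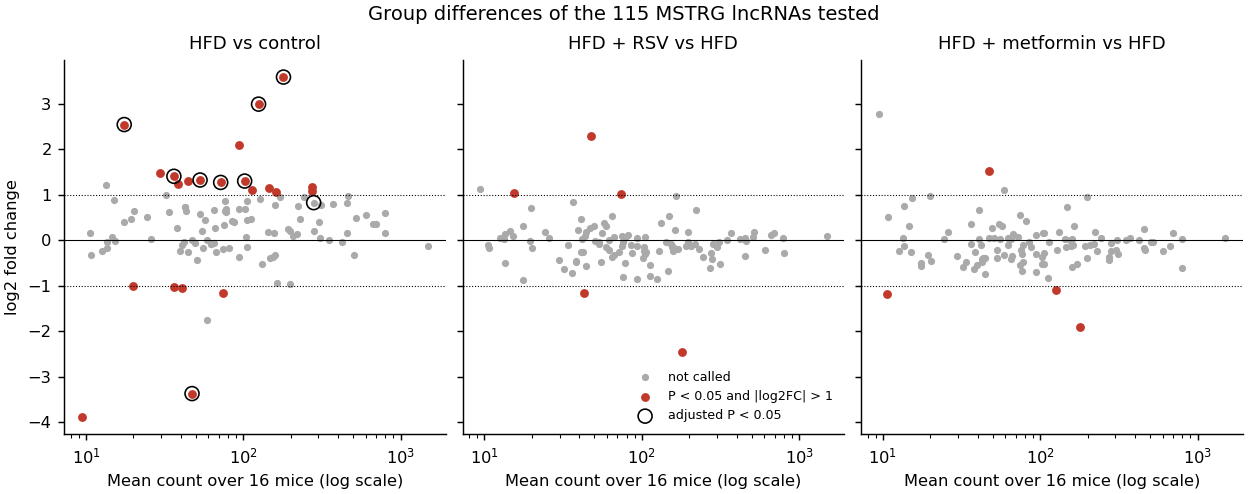
The log2 fold change (vertical axis) against the mean count over 16 mice (horizontal axis, log scale) of the 115 MSTRG lncRNAs tested, for the HFD group against control and for each drug against HFD. Red points had an unadjusted P below 0.05 and an absolute log2 fold change above 1 (22, 5 and 4), and the 9 circled points, all in the left panel, had an adjusted P below 0.05.

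Marker levels also differed between these groups. Fibre markers summed to 63291.3 to 78494.0 CPM in control mice 2 to 4, and to 106084.0 CPM in control mouse 1, against 101683.1 to 114611.6 CPM in the HFD mice. None of the 8 was called. Called lower in HFD mice were 3 of 4 Schwann cell, 2 of 5 adipocyte and 1 of 4 immune markers, against 4.94% of all genes called. The adipocyte marker Lep went the other way, with a log2FC of 1.40, and was not called. Against HFD, 3 Schwann cell and 1 of 5 erythroid markers were called higher with RSV, and 4 erythroid markers with metformin. The median sum of Schwann cell markers was 85.8 CPM in control, 33.6 CPM in HFD and 80.1 CPM in RSV mice. Myh7, the slow myosin heavy chain, which was chosen after its values were seen, ranged from 2.81 to 917 CPM in the control group and from 2.71 to 59.4 CPM in the HFD group. Ucp1, a gene of brown fat chosen in the same way, ranged from 3.12 to 408 CPM in the control group and from 0.249 to 1.06 CPM in the HFD group. The part of these differences in the results was not tested. Without the libraries highest in adipocyte markers (control mouse 3 and HFD + metformin mouse 3), 16 of 118 MSTRG lncRNAs tested were called in the HFD group. The share of all lncRNAs called in that fit is not given here. The 4 HFD mice also share a leading number in their labels that no other mouse has, and what it marks cannot be told apart from the diet.

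The largest rise was that of MSTRG.20519.5, a transcript of 1947 bases at chr18:60439274-60441367 without a coding gene in its span. It held 0.805, 0.815, 1.01 and 0.784 FPKM in the control mice and 9.75, 3.98, 11.9 and 9.10 FPKM in the HFD mice. The groups did not overlap, and HFD mouse 2 was the lowest of its group. The log2FC was 3.59 ± 0.67 (SE), with an adjusted P of 0.0226 by edgeR. Under RSV the mice held 0.476, 0.940, 3.78 and 1.59 FPKM, all below every HFD mouse (log2FC -2.45 ± 0.63, exact permutation P = 0.0286, adjusted P = 0.476 by edgeR). Under metformin they held 5.80, 0.915, 2.09 and 1.63 FPKM, where mouse 1 overlapped the HFD group (log2FC -1.92 ± 0.62, exact permutation P = 0.0571, adjusted P = 0.651 by edgeR). The nearest gene of any type, the processed pseudogene BC023105, starts 397 bases downstream of the span on the plus strand. BC023105 held 16.5 to 45.0 CPM in the control group and 56.6 to 86.9 CPM in the HFD group (log2FC 1.35 ± 0.34, adjusted P = 0.0534 by edgeR), and its reads may be shared with other copies.

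MSTRG.6385.1 showed the opposite order. This transcript of 2844 bases at chr11:72478615-72494193 crosses the 5′ edge of Spns2, which encodes a transporter of sphingosine-1-phosphate. The control mice held 0.924, 1.43, 1.84 and 1.58 FPKM, and the HFD mice 0.183, 0.0804, 0.0378 and 0.158 FPKM, so the lowest control mouse was above the highest HFD mouse. The log2FC was -3.37 ± 0.59 (adjusted P = 0.0203 by edgeR), from counts of 57 to 138 in control and 3 to 15 in HFD mice. With RSV the level was 0.380, 1.29, 0.188 and 0.602 FPKM (log2FC 2.29 ± 0.59, exact permutation P = 0.0571, adjusted P = 0.47 by edgeR), and all 4 mice were above the highest HFD mouse in FPKM but overlapped it in log2 CPM. With metformin it was 0.676, 0.363, 0.241 and 0.229 FPKM (log2FC 1.52 ± 0.60, exact permutation P = 0.0571, adjusted P = 0.683 by edgeR). These 2 comparisons share the HFD mice with that against control. Spns2 itself held 91.8 to 149 CPM in the control group and 42.3 to 55.0 CPM in the HFD group, and its log2FC was -1.27 ± 0.27 (adjusted P = 0.0362 by edgeR). Its log2FC was 1.06 ± 0.27 with RSV and 1.10 ± 0.27 with metformin against HFD (adjusted P = 0.999 and 0.468 by edgeR). The log2FC of transcript and gene had the same sign in all 3 comparisons, and since strand is not known for the transcript, reads of a longer Spns2 pre-mRNA cannot be told apart from it.

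MSTRG.3472.1 rose in the HFD group, as its neighbour did. It is 7807 bases long, lies at chr10:42996707-43016438 and crosses the 3′ edge of Sobp, which encodes a zinc finger protein. The control mice held 0.177, 0.117, 0.144 and 0.183 FPKM and the HFD mice 1.08, 0.532, 1.40 and 1.19 FPKM, without overlap (log2FC 2.99 ± 0.52, adjusted P = 0.0201 by edgeR). RSV mice held 0.337, 0.777, 0.991 and 0.392 FPKM, and metformin mice 0.688, 0.364, 0.192 and 0.885 FPKM, and in both the mean (0.624 ± 0.313 and 0.532 ± 0.312 FPKM, SD) lay between those of the control and HFD groups. Sobp held 17.7 to 24.7 CPM in the control and 32.2 to 39.2 CPM in the HFD group (log2FC 0.87 ± 0.19, adjusted P = 0.0386 by edgeR). With RSV and metformin against HFD, the log2FC of Sobp was 0.02 ± 0.19 and -0.11 ± 0.19 (adjusted P = 0.999 and 0.876 by edgeR). That of the transcript was -0.86 ± 0.48 and -1.10 ± 0.48 (adjusted P = 0.878 and 0.698 by edgeR). The span overlaps Sobp, so transcript and gene may share reads.

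Of the transcripts in introns, MSTRG.42920.1 and MSTRG.42831.2 passed the adjusted threshold in the HFD group, whereas their host genes did not. MSTRG.42920.1, 313 bases at chr8:121824990-121826577 in Klhdc4, held 0.884, 0.469, 0.495 and 0.762 FPKM in the control mice and 3.33, 3.65, 1.72 and 4.04 FPKM in the HFD mice (log2FC 2.54 ± 0.47, adjusted P = 0.0205 by edgeR). Its counts were low, at 4 to 6 in control and 15 to 35 in HFD mice. MSTRG.42831.2, 7240 bases at chr8:120447332-120454813 in Gse1, held 0.898, 1.11, 1.20 and 1.27 FPKM against 1.99, 1.35, 1.86 and 1.44 FPKM (log2FC 0.83 ± 0.14, adjusted P = 0.0187 by edgeR). The rise of MSTRG.42831.2 was below the fold threshold of a call, but the groups did not overlap. Klhdc4 had a log2FC of 0.25 ± 0.14 (adjusted P = 0.295 by edgeR) and Gse1 of 0.31 ± 0.16 (adjusted P = 0.241 by edgeR).

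Of the remaining transcripts past the adjusted threshold, MSTRG.38233.2 at chr7:46816241-46827693 crosses the 3′ edge of Gtf2h1, which encodes a subunit of the transcription and repair factor TFIIH. It held 0.971, 0.768, 1.11 and 0.764 FPKM in control and 1.78, 2.20, 1.93 and 1.65 FPKM in HFD mice (log2FC 1.32 ± 0.29, adjusted P = 0.0343 by edgeR), while Gtf2h1 had a log2FC of 0.12 ± 0.14 (adjusted P = 0.627 by edgeR). MSTRG.34809.1 at chr6:14608342-14611976 lies 102001 bases from Ppp1r3a, which encodes the muscle glycogen-targeting subunit of protein phosphatase 1. Its level was 5.05, 2.53, 4.72 and 2.31 FPKM in control and 7.28, 6.65, 8.76 and 7.79 FPKM in HFD mice (log2FC 1.3 ± 0.3, adjusted P = 0.043 by edgeR). Neither drug group was called against HFD for these 2 transcripts.

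**Figure D3:**
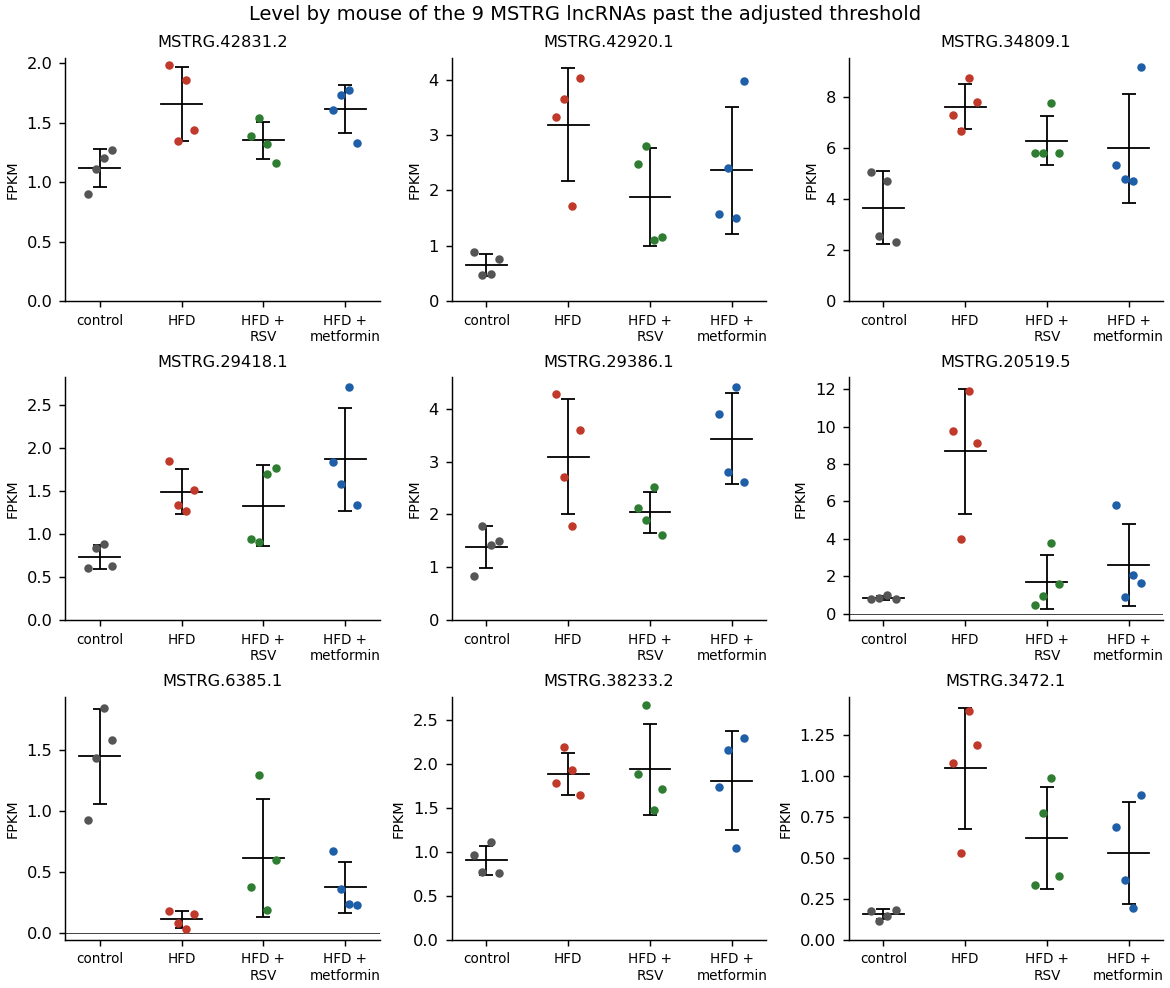
FPKM by mouse (points) with the mean and SD of 4 mice (lines and bars) in the control, HFD, HFD + RSV and HFD + metformin groups, for the 9 MSTRG lncRNAs with an adjusted P below 0.05 between HFD and control. The HFD mice lie below the control mice in the panel of MSTRG.6385.1 and above them in the others, save that of MSTRG.29386.1. There the lowest HFD mouse and the highest control mouse are level.

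The region of chemokine gene copies on chromosome 4 moved as a group. All 6 transcripts tested there had a higher mean in the HFD than in the control group, with log2FC from 0.82 to 1.40, and 4 were called. MSTRG.29386.1 held 0.847, 1.78, 1.42 and 1.49 FPKM in control and 4.28, 2.70, 1.78 and 3.60 FPKM in HFD mice (log2FC 1.40 ± 0.26, adjusted P = 0.0218 by edgeR). The sum over the 3 transcripts of its locus had a log2FC of 1.16 (adjusted P = 0.0434 by edgeR). MSTRG.29418.1 held 0.608, 0.835, 0.883 and 0.629 FPKM against 1.85, 1.34, 1.27 and 1.51 FPKM (log2FC 1.27 ± 0.24, adjusted P = 0.0226 by edgeR). Summed over the 7 transcripts, the level was 208 ± 45.7 CPM of the lncRNA table (SD, n = 4) in control, 355 ± 135 in HFD, 282 ± 42.1 in HFD + RSV and 381 ± 82.2 in HFD + metformin mice. HFD mice 1 and 4 were high, and HFD mice 2 and 3 were within or close to the control range. Against HFD, all 6 had a lower mean with RSV (log2FC -0.71 to -0.27, none called), and log2FC with metformin ran from -0.17 to 0.08. The 6 are not 6 measurements, since their spans overlap and they may share reads. MSTRG.45595.1, on the unplaced scaffold GL456350.1, also had a log2FC of 0.66 ± 0.32 in the HFD group (exact permutation P = 0.286, adjusted P = 0.3 by edgeR).

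In the region of NKG2D ligand genes on chromosome 10, 11 of 17 transcripts were tested, and all 11 had a higher mean in the HFD than in the control group (log2FC 0.25 to 1.08, median 0.68). The call was made for MSTRG.3157.21 alone (log2FC 1.08 ± 0.33, exact permutation P = 0.0286, adjusted P = 0.11 by edgeR). Summed over the 10 transcripts of its locus, log2FC was 0.66 (unadjusted P = 0.084 and adjusted P = 0.361 by edgeR), and no call was made. The level summed over the 17 transcripts of the region was 525 ± 175 in control, 738 ± 210 in HFD, 715 ± 123 in HFD + RSV and 653 ± 287 in HFD + metformin mice, and the groups overlapped. Among the zinc finger genes of chromosome 2, log2FC between HFD and control ran from 0.01 to 0.68 over 5 transcripts, with no call. The group at 4930467E23Rik on chromosome 8 had 4 higher and 5 lower of 9, from -0.27 to 0.28, and no call.

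A group of 3 without a coding gene, at chr8:55349413-55518895, was lower in the HFD group and higher with RSV. MSTRG.41296.1 held 24.3, 20.4, 27.5 and 11.6 FPKM in control mice, 6.43, 13.9, 7.38 and 8.60 FPKM in HFD mice and 18.5, 32, 15.5 and 13 FPKM in HFD + RSV mice. Control mouse 4 and HFD mouse 2 overlapped. The log2FC of the 3 transcripts was -1.16 to -0.94 between HFD and control and 0.84 to 1.01 between RSV and HFD, each with an unadjusted P below 0.05. MSTRG.41297.1 was called in both (exact permutation P = 0.0571 in each, adjusted P = 0.087 and 0.648 by edgeR). With metformin, log2FC was 0.32 to 0.54, and none was called. Whether the 3 transcripts are parts of 1 longer RNA was not tested.

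**Figure D4:**
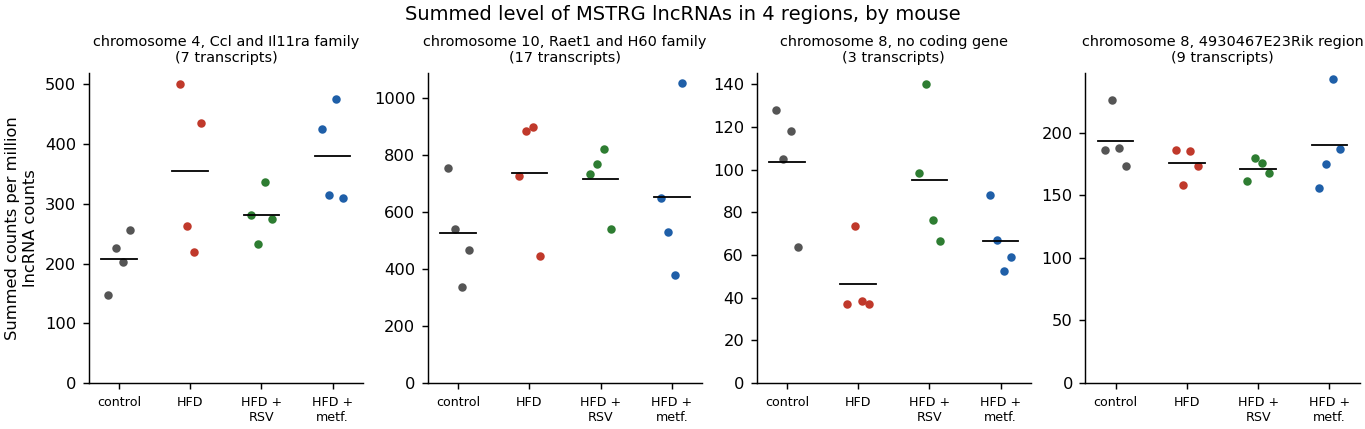
Summed CPM of the lncRNA table (vertical axis) of the MSTRG lncRNAs in 4 regions, by mouse (points) with the group mean (line). On chromosome 4 the means were 208 in control and 355 in HFD mice, the region without a coding gene on chromosome 8 was lower in HFD mice (46.5 against 104 in control), and the last region held 171 to 193 in all groups.

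MSTRG.25909.1 followed Pck1, which encodes phosphoenolpyruvate carboxykinase, an enzyme of gluconeogenesis and of glyceride synthesis in fat cells. The transcript of 272 bases spans chr2:173128164-173159238 and crosses the 5′ edge of Pck1. It held 1.36, 1.08, 8.54 and 2.28 FPKM in the control mice and 0, 0, 0.132 and 0.600 FPKM in the HFD mice (log2FC -3.88 ± 1.33, exact permutation P = 0.0286, adjusted P = 0.144 by edgeR), from counts of at most 4 in an HFD mouse. Pck1 held 321 to 1796.1 CPM and 14.8 to 197 CPM in these groups (log2FC -3.48 ± 1.41, adjusted P = 0.152 by edgeR). Both were highest in the 2 libraries highest in adipocyte markers, where Pck1 held 1796.1 and 1501.8 CPM and the transcript 8.54 and 5.04 FPKM. The span of MSTRG.25909.1 overlaps exons of Pck1, and strand is not known for the transcript. Reads of Pck1 therefore cannot be told apart from those of the transcript. Without control mouse 3 the log2FC of the transcript was -2.87 and the call was lost. MSTRG.63.2 in Sntg1, MSTRG.30354.1, MSTRG.40398.1, MSTRG.40433.3 and MSTRG.39508.1 also had their highest levels in these 2 libraries, as 6 of the 134 did in all.

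Tmem233, which encodes a small membrane protein, rose in the HFD group (17.0 to 39.3 CPM in control, 56.0 to 69.5 CPM in HFD mice, log2FC 1.32 ± 0.29, adjusted P = 0.0386 by edgeR). MSTRG.33607.1, which crosses its 5′ edge at chr5:116081955-116093012, held 1.53, 0.701, 1.02 and 1.00 FPKM in control and 2.03, 1.60, 2.04 and 1.45 FPKM in HFD mice (log2FC 0.97 ± 0.34, exact permutation P = 0.0286, adjusted P = 0.147 by edgeR). It was thus just under the fold threshold. The span of MSTRG.33607.1 overlaps an exon of Tmem233, so transcript and gene may share reads.

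MSTRG.18833.1, 1257 bases at chr17:50507825-50509498, ends 49 bases from the coding transcripts of Plcl2 in the mRNA table and overlaps an exon of Plcl2 in GENCODE. Plcl2 encodes a phospholipase C-like protein. It held 0.917, 0.678, 0.770 and 1.14 FPKM in control and 1.88, 1.33, 1.97 and 2.14 FPKM in HFD mice (log2FC 1.31 ± 0.35, adjusted P = 0.067 by edgeR). MSTRG.34010.2 at chr5:129484278-129486167 held 0.748, 1.06, 0.821 and 0.298 FPKM against 2.17, 1.51, 2.11 and 1.17 FPKM (log2FC 1.47 ± 0.43, adjusted P = 0.0966 by edgeR). The sum over the 2 transcripts of its locus had a log2FC of 1.34 (adjusted P = 0.105 by edgeR). On the X chromosome, MSTRG.46342.1 and MSTRG.46345.1, both over 100 kb from the nearest coding gene, Spin4, were lower in the HFD group, at log2FC -1.05 ± 0.29 and -1.01 ± 0.30 (adjusted P = 0.0798 and 0.0966 by edgeR). In none of these 4 did the HFD and control mice overlap.

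Over all pairs of an MSTRG lncRNA and a coding gene that it overlapped or lay within 5000 bases of, leaving out spans over 100 kb with whole genes, 60 pairs could be tested. In 7 of these pairs the transcript was called between HFD and control, in 4 of the 7 the gene had an unadjusted P below 0.05 in the same direction, and in 2 both were called. Of the genes tested, 24.2% had an unadjusted P below 0.05 in this comparison, and 4.94% were called. The same sign was found in 43 of the 60 pairs, which include pairs that share a transcript or a gene. Of all MSTRG lncRNAs tested, 68.7% had a log2FC above 0, and the rate of equal signs in unrelated pairs was not computed.

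RSV against HFD gave 5 calls among the 115, 3 higher and 2 lower (4.35%, against 1.93% of all lncRNAs, 1.03% higher and 0.892% lower). None had an adjusted P below 0.05 by edgeR, as 0.0114% of all did. The unadjusted P was below 0.05 for 13 (6.29% of all lncRNAs). DESeq2, whose share of all lncRNAs is not given here, gave 2 with an adjusted P below 0.05, MSTRG.20519.5 and MSTRG.6385.1. Beside these and MSTRG.41297.1, the calls were MSTRG.16190.1, 376 bases in Zc3h7a (6.83, 3.65, 6.97 and 4.99 FPKM in HFD, 3.60, 4.06, 1.82 and 1.45 FPKM in RSV mice, log2FC -1.16 ± 0.51, exact permutation P = 0.0286, adjusted P = 0.76 by edgeR), and MSTRG.40295.1 in Myo16 (log2FC 1.03 ± 0.42, exact permutation P = 0.0857, adjusted P = 0.717 by edgeR). HFD mouse 2 and RSV mice 1 and 2 were close together for MSTRG.16190.1, overlapping in FPKM but not in log2 CPM. Summed over the 2 transcripts of this locus, log2FC was -0.70 (unadjusted P = 0.19 and adjusted P = 0.935 by edgeR), and no call was made. The summed counts overlapped, at 43 to 75 in HFD and 19 to 63 in RSV mice. In 7 of the 115 (6.09%) the groups did not overlap, against 4.05% of all lncRNAs.

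Metformin against HFD gave 4 calls, 1 higher and 3 lower (3.48%, against 2.38% of all lncRNAs, 1.33% higher and 1.05% lower). None of the MSTRG lncRNAs, and 0% of all lncRNAs, had an adjusted P below 0.05 by edgeR. The unadjusted P was below 0.05 for 12 (6.95% of all lncRNAs), and DESeq2 also gave 0 with an adjusted P below 0.05. The calls were MSTRG.6385.1, MSTRG.20519.5 and MSTRG.3472.1 (log2FC -1.10 ± 0.48, exact permutation P = 0.0857, adjusted P = 0.698 by edgeR), all given above, and MSTRG.33880.1 in Kntc1 (log2FC -1.19 ± 0.53, exact permutation P = 0.143, adjusted P = 0.704 by edgeR), which held 8, 20, 6 and 15 counts in HFD and 1, 8, 3 and 13 counts in metformin mice. The groups did not overlap for 2 of the 115 (1.74%), against 3.66% of all lncRNAs.

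A test for any difference among the 4 groups had an unadjusted P below 0.05 for 36 of the 115 (31.3%, against 12.2% of all lncRNAs). None had an adjusted P below 0.05 by edgeR, the smallest being 0.08, as 0.0795% of all did. DESeq2 gave 9, and its share of all lncRNAs is not given here.

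By position, the 22 calls between HFD and control comprised 8 higher and 4 lower of the 32 tested without a coding gene, 5 higher of 35 over whole genes, 2 higher and 2 lower of 18 at an edge, and 1 higher of 30 inside a gene. Of all lncRNAs tested, 5.94% were called, and their share by position was not computed, so no position can be linked to the diet here. Transcripts that share a locus are counted singly. Of the 12 tested that fill at least 90% of their span, 1 was called. MSTRG.46264.45 in Dmd (log2FC -0.13, adjusted P = 0.825 by edgeR) and MSTRG.17632.1 in Park2 (log2FC 0.16, adjusted P = 0.597 by edgeR) were among those not called, although they had some of the highest counts.

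Many MSTRG transcripts share an assembled locus, and there the counts often passed from one transcript to another between mice rather than between groups. The 134 fall into 102 loci, and 14 loci hold 46 transcripts. At MSTRG.24704 in Pla2g4e, which encodes a cytosolic phospholipase A2, control mouse 3 and RSV mouse 2 had all their counts in MSTRG.24704.2 (272 and 338), 12 mice had over 90% in MSTRG.24704.1, and HFD mouse 3 and metformin mouse 2 were split (152 and 225, 201 and 201). The sum of both lay between 204 and 481 in every mouse. At MSTRG.6082, which lies wholly in exons of the ubiquitin gene Ubb, the share of MSTRG.6082.10 ran from 9.32% to 100%, with sums of 114 to 218.

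Some transcripts seen in 1 mouse had the same appearance. MSTRG.22246.1 at Wbp1l held 64 counts in metformin mouse 4 and 0 in the 15 others, and MSTRG.22246.2 of the same locus held 9 counts in that mouse and 19 to 56 in the others. In HFD mouse 3, MSTRG.46264.46 held 474 counts and MSTRG.46264.45 held 935, while RSV mouse 2 had 8 counts of the former and the 14 others 0. MSTRG.3160.1 held 2 counts in HFD mouse 3, where MSTRG.3160.7 held 26, and 9 counts in RSV mouse 1, where MSTRG.3160.2 held 206. The sum of this locus was 168 in HFD mouse 3, the lowest of all mice, against 342, 374 and 357 in the other HFD mice. For the named transcripts that were called and share a locus, the sum of the locus is therefore given beside the value.

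**Figure D5:**
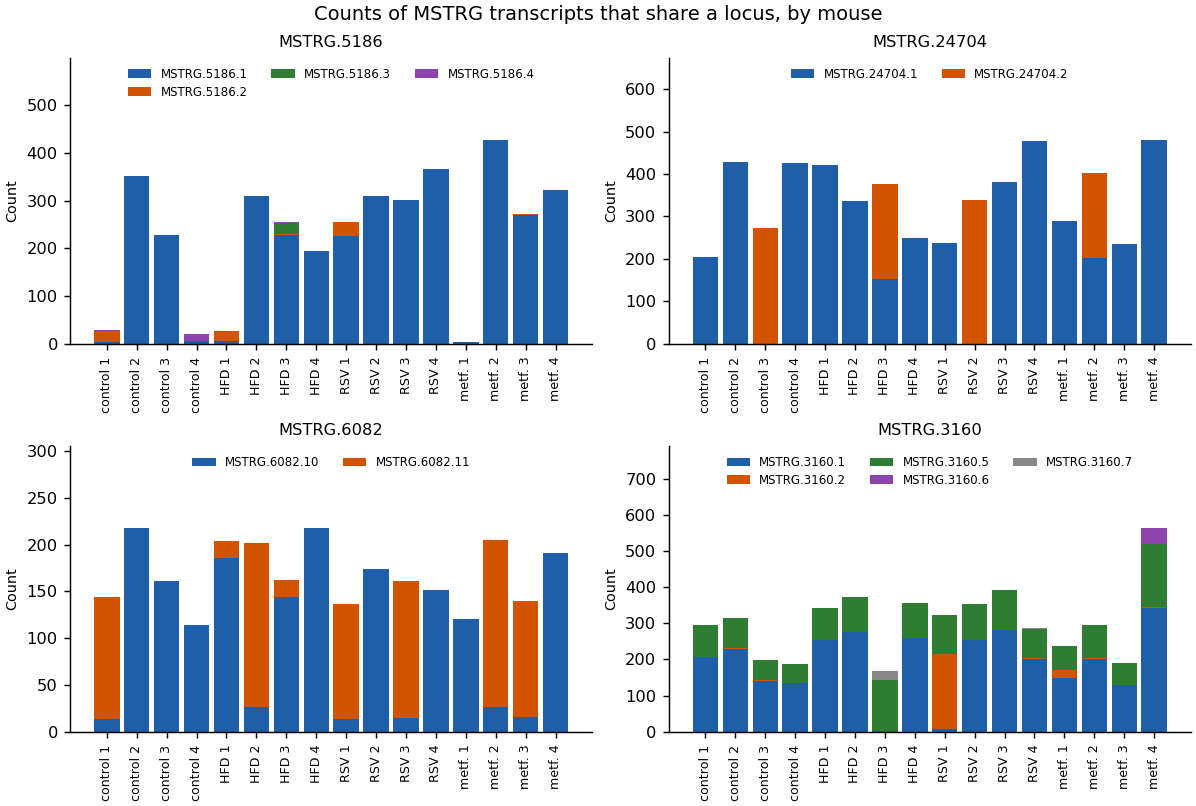
Counts by mouse (bars, 4 mice of each group from left to right) of MSTRG transcripts that share a locus, stacked by transcript, at 4 loci. At MSTRG.24704, MSTRG.6082 and MSTRG.3160 the colours exchange between mice while the total stays above 100, though that of MSTRG.3160 is lowest, at 168, in HFD mouse 3. At MSTRG.5186 the total itself is 4 to 28 in 4 mice and 194 to 428 in the other 12.

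At MSTRG.5186, chr11:6749598-6758391, the sum itself differed between mice. Control mice 1 and 4 held 28 and 20 counts over its 4 transcripts, HFD mouse 1 held 27 and metformin mouse 1 held 4, whereas the 12 other mice held 194 to 428. MSTRG.5186.1 accordingly ranged from 0.218 to 21.1 FPKM, and neither the transcript nor the sum was called (sum of HFD against control, log2FC 0.69, adjusted P = 0.764 by edgeR). The nearest coding gene, Ramp3, which encodes a receptor activity-modifying protein, is 72123 bases away. The low and high mice did not follow the groups.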

How the data were processed

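RNA of skeletal muscle from 16 mice was sequenced after removal of ribosomal RNA. Per the labels and the methods of the study, reads were processed with fastp and HISAT2 on GRCm38 and counted per transcript with StringTie. How transcripts were judged to be non-coding is not given in the sources used here. The authors deposited estimated counts per transcript and mouse, as whole numbers without normalization, with an FPKM value beside each count. Columns of the authors' own comparisons were not used.

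Counts of all lncRNAs and all 16 mice were fitted in 1 quasi-likelihood model with edgeR 4.0.16 in R 4.3.3 (filterByExpr by group, minimum count 10 and minimum total count 15, TMM scaling). SE is the absolute log2FC divided by the square root of F. Counts of the mRNA table were summed per gene name and fitted in the same way. In a test on simulated data for HFD against control, with 200 of 16701 lncRNAs changed by a log2FC of 2, 88.5% were recovered by P and fold and 60.5% by adjusted P, and 1.72% of the unchanged were called. Overlap of groups was read on log2 CPM, where an exact permutation test of 4 against 4 mice cannot go below 0.0286. Positions were compared with GENCODE M21, whose coordinates equal those of 97.7% of the mRNA transcripts that it holds. In the mRNA table, 4 split transcripts were joined.

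The transcripts, lists and tests were chosen with earlier results of these data known. Named were all MSTRG lncRNAs with an adjusted P below 0.05, up to 8 called in each direction without overlap per comparison, the 10 highest in FPKM, the longest and shortest, the one nearest the abundance limit, and those at 0 in a whole group with over 10 counts elsewhere. Others, such as MSTRG.41297.1, MSTRG.33607.1, MSTRG.24704.1, MSTRG.6082.10 and MSTRG.63.2, were named after their values were seen. Another part of that rule, the lncRNA that the study names, is not analysed here.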

Additional observations from a re-analysis of the deposited data

Results flagged for a closer look

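In groups of 4 mice, a mouse was singled out where its distance to the nearest other mouse was above Dixon's 95% limit as a share of the range of FPKM. This held for 18 of the 132 groups examined. Chance gives about 1 in 20 for normally distributed values, but the share found here cannot be set against that rate. Some transcripts were named because they had no counts in a whole group and had counts in another. A group with counts in only 1 mouse always passes the limit.

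Of transcripts tested above, MSTRG.34809.1 was high in HFD + RSV mouse 3 (7.75 FPKM, others 5.79 to 5.82) and in HFD + metformin mouse 4 (9.18 FPKM, others 4.69 to 5.32). MSTRG.20519.5 held 1.01 FPKM in control mouse 3, against 0.784 to 0.815 FPKM. MSTRG.25909.1 held 8.54 FPKM in the same mouse, against 1.08 to 2.28 FPKM. In HFD + metformin mouse 3, MSTRG.34010.2 was low at 0.481 FPKM (others 1.83 to 1.85) and MSTRG.46342.1 was high at 2.20 FPKM (others 0.938 to 1.15). MSTRG.12945.2 held 13.9 FPKM in HFD mouse 4, against 7.59 to 7.71 FPKM. MSTRG.29422.1 held 6.23 FPKM in HFD + RSV mouse 3, against 4.54 to 4.62 FPKM.

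The other 10 concern transcripts with 0 counts in most mice. MSTRG.46264.46 held 3.40 FPKM in HFD mouse 3 and 0.061 FPKM (8 counts) in HFD + RSV mouse 2. In HFD mouse 3, MSTRG.5186.3 also held 1.99 FPKM and MSTRG.3160.7 held 2.79 FPKM. HFD + metformin mouse 4 held 6.47 FPKM of MSTRG.22246.1 and 3.50 FPKM of MSTRG.3160.6. MSTRG.5186.4 held 1.83 FPKM in control mouse 4, against 0 to 0.118 FPKM. A single count lay behind MSTRG.5186.4 and MSTRG.3160.6 in HFD + RSV mouse 1 (0.099 FPKM each) and MSTRG.3160.7 in HFD + RSV mouse 4 (0.109 FPKM).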

How the results depend on the processing

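With an adjusted P below 0.05 as the rule, 9 MSTRG lncRNAs were called between HFD and control and 0 in each of the other 3 tests. Without a filter on low counts, 8 were called for RSV against HFD, and with only the groups compared, 2 for metformin against HFD. Counting a transcript as outside coding genes when most of its span was in none gave 83 in place of 40. Leaving out 1 mouse gave 16 to 26 calls for HFD against control, 2 to 8 for RSV against HFD (2 without HFD replicate 4, 8 without HFD + RSV replicate 1) and 3 to 10 for metformin against HFD (7 without HFD + metformin replicate 2, 10 without replicate 4). For any difference it gave 22 to 46, with 22 without control replicate 2 or 3 and 23 without HFD replicate 1. With TMM factors from both tables, metformin against HFD gave 3 higher and 3 lower, in place of 1 and 3, and no scaling moved the median of all lncRNAs by over 0.1. DESeq2 gave 22 MSTRG lncRNAs with an adjusted P below 0.05 between HFD and control. The shares of all lncRNAs called under these alternatives are not given here, so the counts cannot be set against them.

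Over the named transcripts called in a comparison, with MSTRG.42831.2, 498 log2FC values came from these alternatives, of which none changed sign and 30 lost the call. The transcripts were picked by these same data, and some alternatives left out a mouse of a group not compared. The equal sign is therefore no independent support. The adjusted P of MSTRG.34809.1 ranged from 0.00376 to 0.137 and that of MSTRG.42831.2 from 2.29e-05 to 0.0686. The call of MSTRG.3472.1 under metformin was lost in 7 of 23 alternatives and that of MSTRG.16190.1 under RSV in 7 of 24. Between HFD and control, those of MSTRG.46342.1, MSTRG.46345.1 and MSTRG.3157.21 were lost in 4, 5 and 3 of 24. Leaving out the libraries highest in adipocyte markers and summing counts per locus were chosen after seeing the data. Some numbers in the labels recur across groups, but no pairing of mice is stated, so no paired analysis was made.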
